A study of Mus musculus with 16 samples.

Results

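PGC-1alpha (gene Ppargc1a), its relative PGC-1beta (Ppargc1b) and the 3 estrogen-related receptors ERRalpha (Esrra), ERRbeta (Esrrb) and ERRgamma (Esrrg) were followed across 16 RNA-seq libraries of parvalbumin (PV) interneurons from mouse cortex. The 5 genes were taken by symbol out of 54532 genes in the deposited tables, and all 5 passed the filter on low counts that left 26257 genes for testing. The libraries came from 7 samples of PV-Cre mice carrying lsl-eGFP-GluA2 and 9 samples of PV-Cre mice carrying lsl-eGFP, the control, which are numbered as biological replicates. In both groups Cre made in PV cells switches on a floxed-stop (lsl) transgene, so that the sorted cells carried a green label; in the eGFP-GluA2 group that label is fused to GluA2, the AMPA receptor subunit that in its edited form keeps calcium out, and the mice served to ask what follows when calcium-permeable AMPA receptors are removed. All mice were adult (113.1 ± 11.6 days over the study, the kind of error not being stated), and no age or sex is given per library. The cells were fixed, sorted by nuclear dye and green fluorescence, and sequenced as polyA RNA in bulk, so fewer cells of a type and less RNA per cell cannot be told apart.

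PGC-1alpha and PGC-1beta are transcriptional coactivators: they do not bind DNA themselves but are brought to genes by factors such as the ERRs, and there raise transcription of nuclear genes for mitochondria, respiration and fatty acid oxidation. The ERRs are orphan nuclear receptors, related in sequence to the estrogen receptors but not activated by estrogen. In the cortex PGC-1alpha is concentrated in PV interneurons, fast-spiking cells with a high energy demand, and in mice lacking it these cells have less transcript of parvalbumin (Pvalb), synaptotagmin 2 (Syt2), complexin 1 (Cplx1) and neurofilament heavy chain (Nefh).

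The promoters of 3 members are shown because Ppargc1a, Esrra and Esrrg are the members whose levels differed most between libraries. Each run is the 250 bases before the first listed RefSeq start (GRCm38.p6), 5′ to 3′ on the strand of the gene; capitals mark a motif match. They cover chr5:51567726-51567975 (minus), chr19:6921809-6922058 (minus) and chr1:187608756-187609005 (plus).
Ppargc1a: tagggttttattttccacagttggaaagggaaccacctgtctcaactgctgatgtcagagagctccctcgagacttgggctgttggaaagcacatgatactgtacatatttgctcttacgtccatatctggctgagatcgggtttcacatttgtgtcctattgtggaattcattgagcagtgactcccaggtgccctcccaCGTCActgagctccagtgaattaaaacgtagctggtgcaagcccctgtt
Esrra: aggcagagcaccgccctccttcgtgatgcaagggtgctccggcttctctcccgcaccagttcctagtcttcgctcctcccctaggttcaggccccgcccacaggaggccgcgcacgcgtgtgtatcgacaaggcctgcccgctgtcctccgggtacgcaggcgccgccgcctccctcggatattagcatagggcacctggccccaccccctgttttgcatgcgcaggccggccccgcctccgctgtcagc
Esrrg: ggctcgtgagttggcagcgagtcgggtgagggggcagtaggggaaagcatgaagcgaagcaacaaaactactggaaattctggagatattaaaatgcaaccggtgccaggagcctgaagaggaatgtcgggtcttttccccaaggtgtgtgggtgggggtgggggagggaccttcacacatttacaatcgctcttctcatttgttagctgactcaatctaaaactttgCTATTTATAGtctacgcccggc
RefSeq promoter windows were at hand for 4 of the 5 members, with 1 start for Ppargc1a and Esrra, 2 for Esrrb and 4 for Esrrg. The windows were searched on both strands for 7 motifs. The capitals in Ppargc1a are CGTCA, the reverse complement of the cAMP response element half-site TGACG, 49 to 45 bases before the start; 17.8% of 32851 RefSeq windows of this length hold that half-site. The first Esrrb window holds TGACG at 158 to 154 and at 117 to 113 bases before its start. The capitals in Esrrg are a match to the MEF2 motif, 22 to 13 bases before the RefSeq start, which is found in 2.92% of windows. GENCODE starts Esrrg earlier, at chr1:187608791, so most of this window, with the match, lies inside the gene as GENCODE has it. None of the windows of these 4 members held the ERR half-site AAGGTCA (4.08% of windows) or its extended form TNAAGGTCA (1.14%), the full element TGACGTCA (1.55%), the NRF1 motif (3.74%) or the ETS motif CCGGAAG bound by GABP (6.91%). AAGGTCA lies within TNAAGGTCA and TGACG within TGACGTCA, so these matches overlap. The data do not show which start these cells used.

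On GRCm38 (GENCODE names), Ppargc1a (ENSMUSG00000029167) spans chr5:51454250-51567726 on the minus strand and Ppargc1b (ENSMUSG00000033871) chr18:61298136-61400431 on the minus strand. Esrra (ENSMUSG00000024955) spans chr19:6910977-6921813 on the minus strand, Esrrb (ENSMUSG00000021255) chr12:86361117-86521628 on the plus strand and Esrrg (ENSMUSG00000026610) chr1:187608791-188214885 on the plus strand. Esrra shares 73 bases at its 3′ end with Trmt112 on the other strand, which held 63 to 206 counts per library. The microRNA gene Mir378a inside Ppargc1b had 0 counts in every library, and the other annotated genes within the members held at most 118 counts. No source says that strand was used in counting, and reads in shared stretches cannot be assigned.

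All 5 genes were detected in every library, at levels that fell into 3 steps. Esrrg, Esrra and Ppargc1a stood together at the top, Ppargc1b lay below them, and Esrrb was lowest. On the TPM scale, which is per transcript length and so allows genes to be compared, the medians over 16 libraries were 27.2 for Esrrg, 25.7 for Esrra, 25.5 for Ppargc1a, 11.8 for Ppargc1b and 2.69 for Esrrb. The neighbours at the top did not differ beyond their spread: Esrrg was higher than Esrra in 10 of 16 libraries, and Esrra was higher than Ppargc1a in 8 of 16. Ppargc1a exceeded Ppargc1b in 15 of 16 libraries, with a median TPM ratio of 2.32 and a range of 0.991 to 4.39. Ppargc1b exceeded Esrrb in 16 of 16 libraries, and their TPM ranges did not touch. The classical estrogen receptors, which share their name with the ERRs but are separate genes, were lower still, with a median TPM of 1.46 for Esr1 (ERalpha) and 0.206 for Esr2 (ERbeta); Esr1 was below Esrrb in 12 of 16 libraries. For scale, Pvalb, the gene that defines these cells, had a median of 194 TPM.

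**Figure D1:**
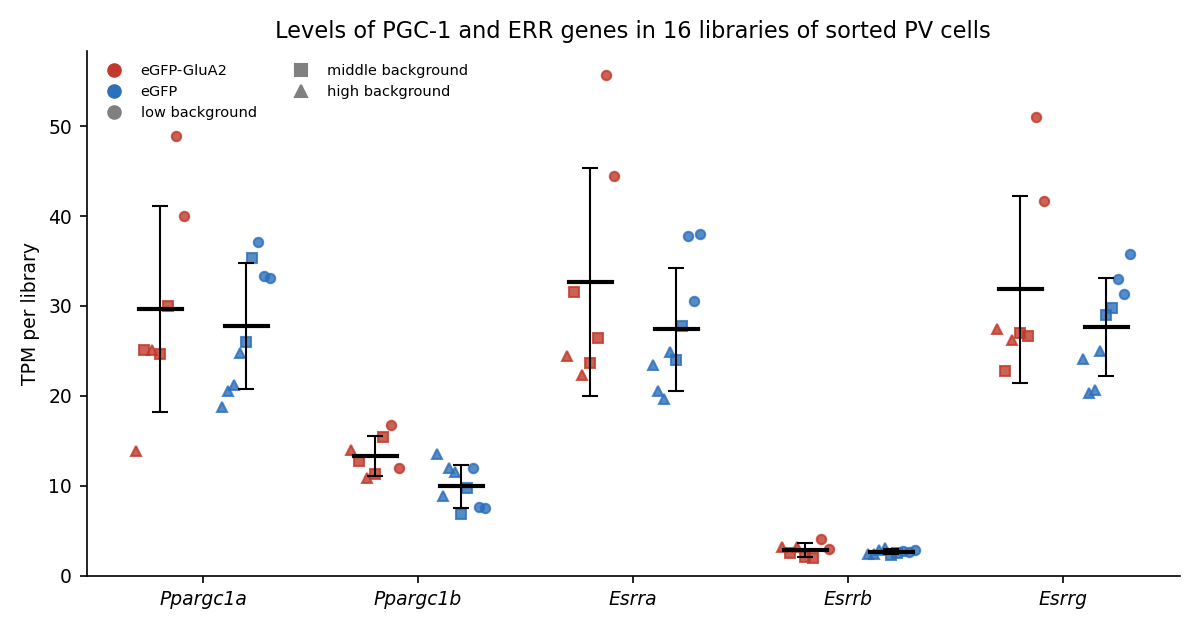
TPM of each of the 5 genes in each library; red points are eGFP-GluA2 (n = 7) and blue points eGFP (n = 9), bars are the mean and SD, and the marker shape gives the background class of the library. Esrrg, Esrra and Ppargc1a share one range with medians of 25.5 to 27.2 TPM. For each of the 5 genes the highest point is a low-background eGFP-GluA2 library.

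The libraries differ along an axis that does not follow genotype, and the members sit on it, so it is described before the genotypes are compared. Total counts were 7454165 to 15462544 per library. Reads in 1450 autosomal olfactory and vomeronasal receptor genes, which are genes of sensory neurons in the nose and are called the background here, ranged from 82.4 to 4148 CPM (counts scaled to library size). Background was low, at 82.4 to 162 CPM, in 5 libraries (eGFP-GluA2 replicates 6 and 7, eGFP replicates 7, 8 and 9). It was 676 to 1277 CPM in 5 middle libraries (eGFP-GluA2 replicates 2, 4 and 5, eGFP replicates 5 and 6) and 1911 to 4148 CPM in 6 high ones (eGFP-GluA2 replicates 1 and 3, eGFP replicates 1 to 4). No pair of samples within a genotype looked like 1 library deposited a second time, and pairs across genotypes were not compared. Of the 9 PV interneuron markers, none was at 0 in any library. Their summed level was 5702 to 9797 CPM in eGFP-GluA2 and 5172 to 9402 CPM in eGFP libraries, against at most 276 CPM for the 6 excitatory neuron markers. By background, the same PV sum was 8934 to 9797 CPM in low, 7625 to 8190 CPM in middle and 5172 to 7059 CPM in high libraries.

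No genotype difference passed the threshold for any of the 5 genes in edgeR's quasi-likelihood test on counts. The test called 0 of 5 members at an adjusted p of 0.05, where it called 0.00381% of all tested genes (1 of 26257), and 0 of 5 at an unadjusted p under 0.05, where 1.12% of all tested genes lay. All 5 adjusted p-values were 1.00 (edgeR, Benjamini-Hochberg over all tested genes). Among the 12399 protein-coding genes averaging 2 log2 CPM or more, the same test called 0. In the authors' deposited table Gria2, the gene of GluA2, was higher in eGFP-GluA2, at a log2 fold change of 0.85 (adjusted p = 4.63e-09, DESeq2). Calls of 0 in the edgeR test thus do not show that a gene was unchanged. On the log2 scale the 95% intervals of the difference were about 1 unit wide for Ppargc1a, Esrra and Esrrg and much narrower for Ppargc1b and Esrrb. With the log2 background as a covariate the test again called 0 of 5 members, where 0.0343% of all tested genes were called, and 0 of 5 at an unadjusted p under 0.05, where 3.8% lay, and the intervals of the 3 abundant genes narrowed.

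Among the coactivators, Ppargc1a ran from 13.9 TPM over a median of 25.1 to 48.9 in eGFP-GluA2 libraries, against 18.8, 26.0 and 37.1 TPM (lowest, median, highest) in eGFP libraries. The eGFP-GluA2 values enclosed the eGFP values on both sides. Its log2 fold change on counts was -0.07 ± 0.25 (SE; 95% interval -0.60 to 0.46, that is 0.661-fold to 1.38-fold), and -0.09 ± 0.14 with the background covariate.

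Ppargc1b ran from 10.9 TPM over 12.7 to 16.8 in eGFP-GluA2 libraries, against 6.85, 9.73 and 13.5 TPM in eGFP libraries. The 2 groups overlapped between 10.9 and 13.5 TPM. On counts the log2 fold change was 0.15 ± 0.11 (SE; 95% interval -0.09 to 0.39), or 1.11-fold (0.938 to 1.31). Its unadjusted p was 0.212 (edgeR). On TPM the difference of mean log2(TPM + 0.5) was 0.42, with a two-sided exact permutation p of 0.0152 over 11440 assignments, and the limma fit to the whole TPM table gave an adjusted p of 1.00. In the authors' deposited table, where positive means higher in eGFP-GluA2, the log2 fold change of Ppargc1b was 0.29 with a standard error of 0.12, p = 0.0165 and adjusted p = 1.00 (DESeq2). That table holds 1.01% of its genes at an unadjusted p under 0.05 and 0.0187% at an adjusted one. Ppargc1a, Esrra, Esrrb and Esrrg had unadjusted p of 0.699 to 0.860 there (DESeq2). The normalised counts of Ppargc1b behind that table averaged 488 ± 116 in eGFP-GluA2 and 381 ± 59.0 in eGFP libraries (SD, n = 7 and 9). The Ppargc1b mean was higher in eGFP-GluA2 cells in all 3 deposited tables, by an amount that passed no adjusted threshold over all genes.

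The size of the Ppargc1b difference depended on the table and on the background of the libraries. In log2(TPM + 0.5), eGFP-GluA2 exceeded eGFP by 0.65 in low-background, 0.65 in middle and 0.12 in high-background libraries, and the groups did not overlap in the first 2 classes. Of the 12399 protein-coding genes averaging 2 log2 CPM or more, 7.67% were likewise higher without overlap in both. In log2 CPM the same differences were 0.12, 0.08 and 0.06, and the groups did not overlap in the low class, where 12% of these genes were likewise higher. TPM as a whole was shifted in the low-background libraries: the median of these 12399 genes was 0.38 higher in eGFP-GluA2 replicates 6 and 7 than in eGFP replicates 7 to 9, and 65.3% of the genes were higher there without overlap. All 5 members were among those higher without overlap in that class, by 0.30 to 0.65. The median shift was 0.04 in the middle and 0.04 in the high class, and -0.04 on log2 CPM in the low class. Over all 16 libraries the median TPM shift of these genes was 0.0977, and 80.8% of them were above 0. A permutation restricted to the classes (1500 assignments) gave a TPM difference of 0.47 for Ppargc1b (exact p = 0.016). The shift over all genes was not taken out of that value or of the TPM difference over all libraries.

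Among the receptors, Esrra ran from 22.3 TPM over 26.4 to 55.7 in eGFP-GluA2 libraries, against 19.6, 24.9 and 38.0 TPM in eGFP libraries. Its log2 fold change on counts was 0.12 ± 0.27 (SE; 95% interval -0.44 to 0.68). Esrrg ran from 22.8 TPM over 27.0 to 51.0 in eGFP-GluA2 libraries, against 20.4, 29.0 and 35.8 TPM in eGFP libraries, with a log2 fold change on counts of -0.07 ± 0.26 (SE; 95% interval -0.63 to 0.48). For Ppargc1a, Esrra and Esrrg alike the 2 highest libraries were eGFP-GluA2 replicates 6 and 7, the pair in which TPM was shifted for most genes. On log2 CPM the mean of none of these 3 genes was higher in that pair than in low-background eGFP libraries. In the low, middle and high-background classes, eGFP-GluA2 minus eGFP was -0.09, -0.24 and -0.18 for Ppargc1a, -0.03, 0.18 and -0.17 for Esrra, and -0.06, -0.32 and -0.23 for Esrrg. The groups did not overlap for Ppargc1a in the low class, where 19.7% of the 12399 protein-coding genes were likewise lower, and for Esrrg in the middle class, where 8.94% were. In log2(TPM + 0.5) the sign for Esrrg depended on the class, at 0.46, -0.21 and 0.26, without overlap in each. Of the same genes 65.3%, 8.33% and 4.17% were likewise higher, lower and higher. On that scale Ppargc1a was at 0.36, -0.19 and -0.18 and Esrra at 0.49, 0.06 and 0.08, without overlap in the low class only.

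Esrrb, better known for its part in embryonic stem cells and in the inner ear, ran from 1.92 TPM over 2.96 to 4.05 in eGFP-GluA2 libraries, against 2.29, 2.61 and 3.10 TPM in eGFP libraries. Its log2 fold change on counts was -0.06 ± 0.10 (SE; 95% interval -0.27 to 0.15, or 0.830-fold to 1.11-fold). This was the narrowest interval of the 5. In log2(TPM + 0.5) eGFP-GluA2 minus eGFP was 0.30, -0.12 and 0.23 for Esrrb in the low, middle and high-background classes. The groups did not overlap in the low and high classes, where 65.3% and 4.17% of the 12399 protein-coding genes were likewise higher. The two-sided exact permutation p on log2(TPM + 0.5) was 0.868 for Ppargc1a, 0.342 for Esrra, 0.566 for Esrrb and 0.357 for Esrrg. Over all 16 libraries no member separated the genotypes without overlap in TPM, where 0.0157% of 25426 genes did.

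Markers of other cells gave a measured difference beside these values. The summed level of the 6 excitatory neuron markers was 229 to 276 CPM in eGFP-GluA2 libraries, with a median of 249, against 187 to 258 CPM, median 202, in eGFP libraries (two-sided exact permutation p = 0.00516). Of these markers 6 of 6 had a log2 fold change above 0, with a median of 0.33. The PV interneuron sums overlapped (medians 7770 and 7625 CPM in eGFP-GluA2 and eGFP, exact permutation p = 0.734). None of the excitatory markers was at 0 in any library. Of the oligodendrocyte markers 4 of 4 were above 0 with a median of 0.21, and their sums overlapped (69.9 to 97.6 CPM, median 90.2, in eGFP-GluA2 and 56.0 to 107 CPM, median 61.8, in eGFP; exact permutation p = 0.0615). Of the markers of other interneurons 4 of 5 were above 0 with a median of 0.45, but their sums had medians of 117 CPM in eGFP-GluA2 and 108 CPM in eGFP (exact permutation p = 0.776). Of the erythroid markers 0 of 3 were above 0 with a median of -0.99, and their sums had medians of 18.1 CPM in eGFP-GluA2 and 22.2 CPM in eGFP (exact permutation p = 0.197). For microglia 3 of 4, for astrocytes 1 of 5 and for endothelial and mural cells 2 of 4 markers were above 0, with exact permutation p-values of their sums of 0.823, 0.935 and 0.981. These p-values are not adjusted over the 8 marker lists, and the part of these cells in the Ppargc1b values was not tested.

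**Figure D2:**
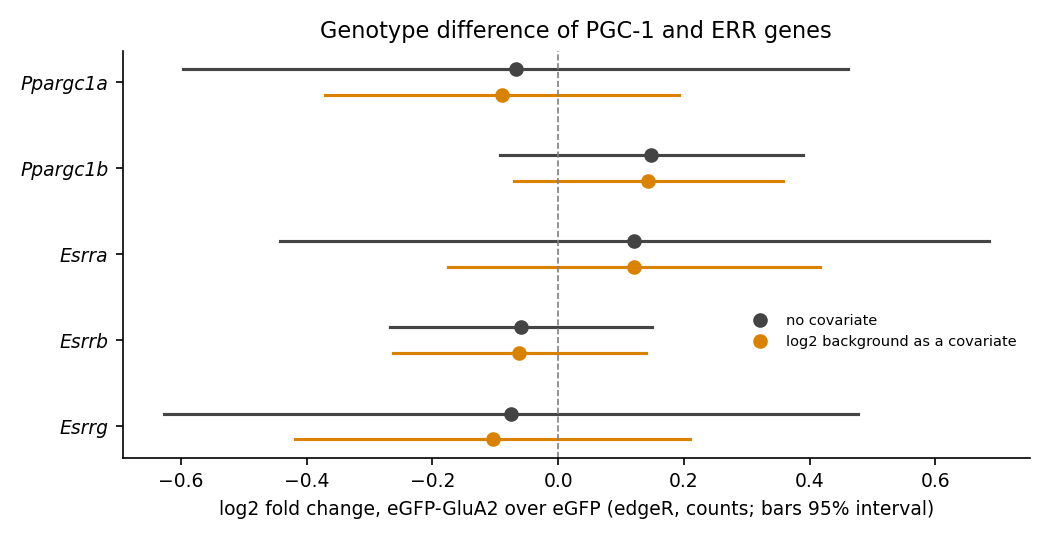
Log2 fold change of the 5 genes, eGFP-GluA2 over eGFP, from edgeR on counts with 95% intervals, without a covariate (black) and with log2 background as a covariate (orange). Every interval includes 0, and Ppargc1b, at 0.15 without and 0.14 with the covariate, has the largest positive value.

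Shares within a library do not depend on how libraries are scaled to each other. Ppargc1a made up 49.8% of the summed TPM of both PGC-1 genes in the lowest, 68.5% in the median and 76.9% in the highest eGFP-GluA2 library, against 58.2%, 75.6% and 81.4% in eGFP libraries. The means were 67.4% ± 8.76 in eGFP-GluA2 and 72.9% ± 8.31 in eGFP (SD, n = 7 and 9), a difference of -5.51 percentage points (two-sided exact permutation p = 0.222). Without eGFP-GluA2 replicate 1, the library at 49.8%, the difference was -2.58 points. The share also moved with background: its median was 76.9% in low, 68.5% in middle and 66.0% in high libraries. With the permutation kept within these classes, the difference was -6.97 points (exact p = 0.0227, 0.0453 after adjustment over the 2 shares tested). Without the 6 high-background libraries the share averaged 70.4% ± 4.95 in eGFP-GluA2 and 79.2% ± 2.41 in eGFP (SD, n = 5 each), a difference of -8.76 points (exact permutation p = 0.0159, adjusted 0.0317). On counts in place of TPM the differences were smaller, at -2.35 points over all libraries (exact permutation p = 0.449), -3.24 points within classes (exact permutation p = 0.0547, adjusted 0.109) and -4.08 points without the high-background libraries (exact permutation p = 0.0476, adjusted 0.0952). None of the 3 passed the adjusted threshold on counts. On counts eGFP-GluA2 replicate 1 was at 67.7%, above replicate 3 at 65.8%. A lower Ppargc1a share is the same measurement as a higher Ppargc1b share, and adds no evidence to the Ppargc1b values above.

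In the makeup of the 3 receptors no genotype difference was detected. Esrrg made up 47.6% ± 3.81 of the summed ERR TPM in eGFP-GluA2 and 48.1% ± 2.11 in eGFP libraries (SD, n = 7 and 9), a difference of -0.48 points (two-sided exact permutation p = 0.773). Esrra made up 48.0% ± 4.30 in eGFP-GluA2 and 47.2% ± 2.28 in eGFP libraries, and Esrrb 4.42% ± 1.16 in eGFP-GluA2 and 4.75% ± 1.06 in eGFP libraries. On counts the Esrrg share was 53.6% ± 4.39 in eGFP-GluA2 and 56.3% ± 3.31 in eGFP libraries, a difference of -2.73 points (exact permutation p = 0.183), and -3.21 points within classes (exact permutation p = 0.163). The Esrra share differed by 3.03 points on counts, against 0.80 on TPM. The library furthest from the rest was eGFP-GluA2 replicate 2, where Esrrg was at 40.1% and Esrra at 55.4%. Without that library the Esrrg difference was 0.77 points. The Esrrb share moved with background: it was 3.33% to 4.04% in low-background and 4.74% to 6.71% in high-background libraries.

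**Figure D3:**
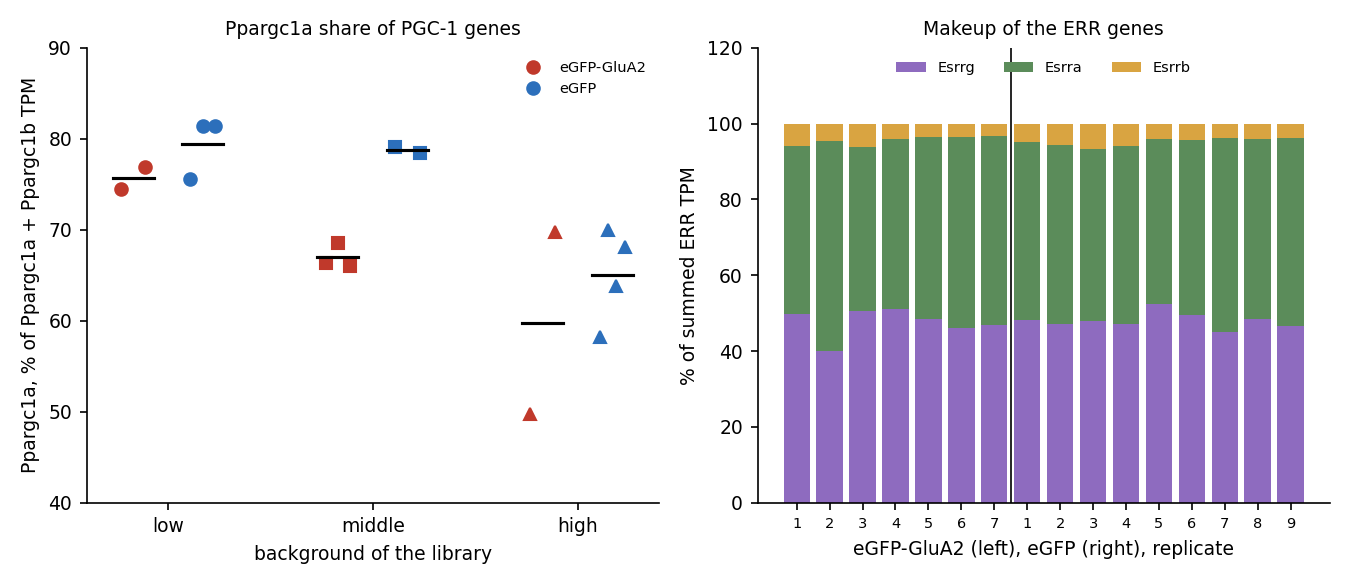
Left, Ppargc1a as a percent of the summed Ppargc1a and Ppargc1b TPM by background class (red eGFP-GluA2, blue eGFP, lines are means); the low, middle and high medians are 76.9%, 68.5% and 66.0%. Right, the makeup of the summed ERR TPM in each library, with eGFP-GluA2 replicates left of the line and eGFP replicates right of it; Esrrg holds 40.1% to 52.5%, Esrra 43.1% to 55.4% and Esrrb at most 6.71%.

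Along the background axis, in log2 CPM, the 5 genes fell into 3 that differed strongly and 2 that did not. Log2 CPM include edgeR's TMM scaling between libraries, which plain CPM do not. Ppargc1a had a mean log2 CPM of 7.79 in low, 7.55 in middle and 6.73 in high-background libraries. Low thus exceeded high by 1.06, or 2.09-fold after that scaling. Esrra differed by 1.14 (2.21-fold) and Esrrg by 1.05 (2.07-fold). For each of these 3 genes every low-background library lay above every high-background one. Ppargc1b differed by only 0.19 and Esrrb by 0.15, and their low and high libraries overlapped. In plain CPM, Ppargc1a was 188 to 196 in low and 112 to 147 in high-background libraries. Esrrb went the other way on that scale, at 15.1 to 16.7 in low and 18.4 to 22.8 in high ones. Ppargc1b was 42.4 to 52.6 in low and 49.0 to 71.7 in high ones. The direction for Ppargc1b and Esrrb thus depended on the scaling.

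A higher log2 CPM in low-background libraries is common here and is given as a description. Of the same 12399 protein-coding genes, 53% were higher without overlap in the low-background libraries (26% of all 26257 tested genes), with a median difference of 0.45. Ppargc1a exceeded 92.1% of them in that difference, Esrra 95.3% and Esrrg 91.6%, while Ppargc1b exceeded 32.3% and Esrrb 30.2%. The PV genes that depend on PGC-1alpha in mice moved further in the same direction: Pvalb differed by 1.50, Syt2 by 1.49, Nefh by 1.45 and Cplx1 by 1.28. The classical receptors went the other way, with low minus high differences of -3.11 for Esr1 and -3.67 for Esr2. On TPM, Esr1 had medians of 0.814 in low and 3.33 in high libraries, so its level there exceeded that of Esrrb, at 3.00. Esr2 was listed at 0 in the median low library and reached 0.460 in the median high one. Some markers of other cells moved along the same axis, with 4 of 5 astrocyte and 4 of 4 endothelial and mural genes higher in high-background libraries. Higher in low-background libraries were 3 of 3 erythroid, 2 of 4 oligodendrocyte, 2 of 6 excitatory neuron, 2 of 5 other interneuron and 0 of 4 microglia markers. These counts are on log2 CPM, and the sums that follow are in plain CPM. The astrocyte sum was 17.3 to 31.9 CPM in low and 46.6 to 65.4 CPM in high libraries. The endothelial and mural sum was 5.24 to 10.8 CPM in low and 26.4 to 51.9 CPM in high ones. On plain CPM the erythroid sum went the other way from its count, with medians of 18.9 in low and 25.7 in high libraries. The part of these other cells in the member levels was not tested.

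**Figure D4:**
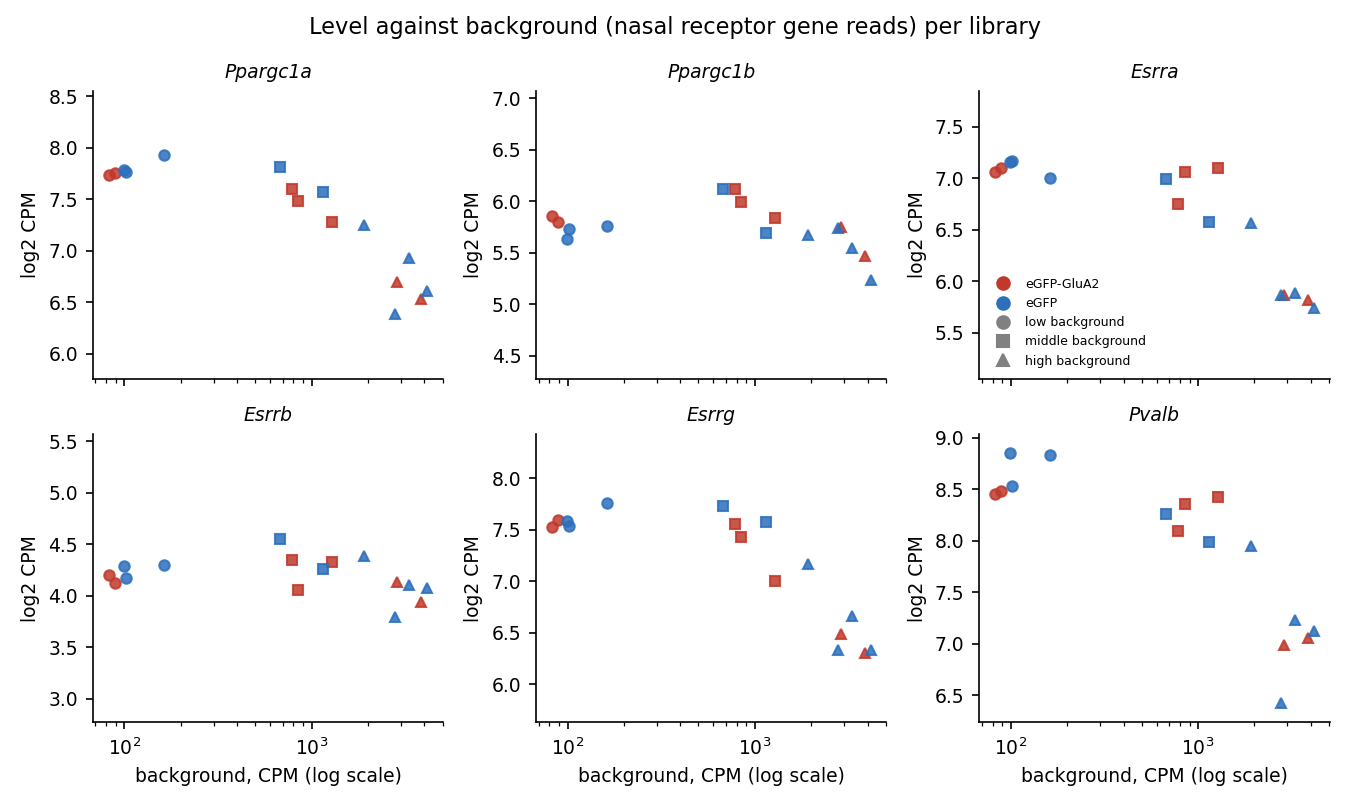
Log2 CPM of the 5 genes and Pvalb in each library against the background of that library in CPM (log axis); red is eGFP-GluA2 and blue eGFP, and every panel spans the same number of log2 units. Ppargc1a, Esrra, Esrrg and Pvalb are 1.05 to 1.50 log2 units higher in low than in high-background libraries. On this TMM-scaled measure Ppargc1b and Esrrb are nearly level, at 0.19 and 0.15.

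Ppargc1a and Esrrg kept almost the same ratio of counts in every library. In counts, Ppargc1a divided by Esrrg was 0.995 to 1.21 over all 16 libraries, with a median of 1.15 in eGFP-GluA2 and 1.12 in eGFP. In TPM the same ratio was wider, at 0.506 to 1.19, and its lowest value was in eGFP-GluA2 replicate 1. By contrast, Ppargc1a divided by Ppargc1b in counts was 3.69 to 4.49 in low-background and 1.56 to 2.99 in high-background libraries, and Esrrg divided by Esrrb was 9.87 to 11.3 in low and 4.84 to 6.90 in high ones. These ratios compare libraries with each other, not the levels of the genes, since counts are not per length.

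What remained after genotype and log2 background were taken out was compared across the 16 libraries with all 12399 genes. Libraries share depth and cell makeup, so each correlation is a description. Ppargc1a and Esrrg had a Pearson r of 0.97, which ranked Esrrg 52nd of 12398 genes for Ppargc1a and Ppargc1a 57th for Esrrg, and r was 0.98 without the 2 libraries where Ppargc1a lay furthest out. High values were frequent: 1242 genes had r over 0.9 with Ppargc1a and 1040 with Esrrg. Ppargc1a correlated at 0.94 with Syt2, 0.91 with Nefh, 0.91 with Cplx1 and 0.84 with Pvalb, and at 0.82 with Esrrb, 0.77 with Esrra and 0.61 with Ppargc1b. Only 10 genes passed 0.9 with Ppargc1b and 2 with Esrrb.

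The genes most like each member were named by rank. For Ppargc1a they were Usp32 (a deubiquitinase, r = 0.99), Luzp1 (0.98) and Kcna2 (a Kv1 potassium channel subunit, 0.98). For Esrrg they were Bmpr2 (a BMP receptor, 0.99), Aak1 (a kinase of clathrin adaptors, 0.99) and Synj1 (synaptojanin 1, of synaptic vesicle recycling, 0.98). For Esrra they were Ndufs7 (a subunit of respiratory complex I, 0.99), Uchl1 (a neuronal ubiquitin hydrolase, 0.98) and Ppp1r9b (spinophilin, 0.98). For Ppargc1b they were Zmym3 (0.93), Myh9 (non-muscle myosin heavy chain, 0.92) and Rimbp2 (a presynaptic active zone protein, 0.91), and for Esrrb Tubgcp5 (0.91), Aamdc (0.91) and Usp8 (0.89).

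The genes around the members gave no genotype calls either. In 9 lists, covering the targets in PV cells, DNA-binding partners, other coregulators, upstream regulators, mitochondrial transcription and metabolism, 0 of 109 tested genes passed an adjusted p of 0.05 in edgeR, where 0.00381% of all tested genes did, or with the background covariate, where 0.0343% did. Without the covariate 0 of 109 had an unadjusted p under 0.05, where 1.12% of all tested genes lay, so a count of 0 is near these shares. No other tool or setting run called a list gene. The values given for these genes are log2 fold changes on counts ± SE, and the median over all 26257 tested genes was -0.02.

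Of the 4 PV genes that depend on PGC-1alpha in mice, 3 were above 0 and the median was 0.06; Syt2, the fast calcium sensor of PV terminals, was at 0.13 ± 0.34 and Nefh at 0.09 ± 0.35. Of the 2 classical estrogen receptors neither was above 0, with Esr2 at -0.43 ± 0.83 and Esr1 at -0.14 ± 0.64. Of 18 DNA-binding partners of PGC-1, 11 were above 0 with a median of 0.03. The ETS factor Gabpa, which drives respiratory genes, was at -0.17 ± 0.11 and the nuclear receptor Ppard at 0.11 ± 0.09.

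Of 15 coactivators and corepressors 14 were tested, and 10 were above 0 with a median of 0.06. Pprc1, the third member of the PGC-1 family, was at 0.21 ± 0.11 and the steroid receptor coactivator Ncoa3 at 0.13 ± 0.14. Of 16 upstream regulators 9 were above 0 with a median of 0.01. Sirt1, which deacetylates PGC-1alpha, was at -0.17 ± 0.10, and Kat2a (GCN5), which acetylates it, at 0.14 ± 0.15. Pprc1 had the smallest unadjusted p among these lists, 0.0871, with an adjusted p of 1.00 (edgeR).

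Of 11 factors of mitochondrial DNA transcription and replication 4 were above 0 with a median of -0.05; the helicase Twnk was at 0.14 ± 0.11 and Polg2, the accessory subunit of the mitochondrial DNA polymerase, at -0.28 ± 0.24. Of 16 genes of the tricarboxylic acid cycle 7 were above 0 with a median of -0.01, and all lay between -0.08 and 0.05. Dld, a shared dehydrogenase subunit, was at -0.08 ± 0.24 and the succinyl-CoA ligase subunit Sucla2 at -0.08 ± 0.29. Of 15 genes of fatty acid oxidation 14 were tested, 7 were above 0 and the median was 0.01, with the acyl-CoA dehydrogenase Acadm at -0.15 ± 0.09 and the carnitine palmitoyltransferase Cpt1a at -0.18 ± 0.18. Of 14 other ERR and PGC-1 targets 7 were above 0 with a median of -0.02, with the acyl-CoA thioesterase Acot2 at -0.18 ± 0.33 and glutamine synthetase Glul at -0.14 ± 0.29.

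Along the background axis the lists were less alike. The 16 tricarboxylic acid cycle genes were all higher in low than in high-background libraries, as were 9353 of the 12399 protein-coding genes. The median log2 CPM difference of the 16 genes was 1.09, close to the 1.05 to 1.14 of Ppargc1a, Esrra and Esrrg. The 4 PGC-1alpha-dependent PV genes had a median of 1.47. The medians were 0.70 for upstream regulators, 0.63 for other targets, 0.53 for coregulators, 0.39 for DNA-binding partners, 0.38 for fatty acid oxidation and 0.16 for mitochondrial DNA factors, against 0.45 over the 12399 protein-coding genes.

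**Figure D5:**
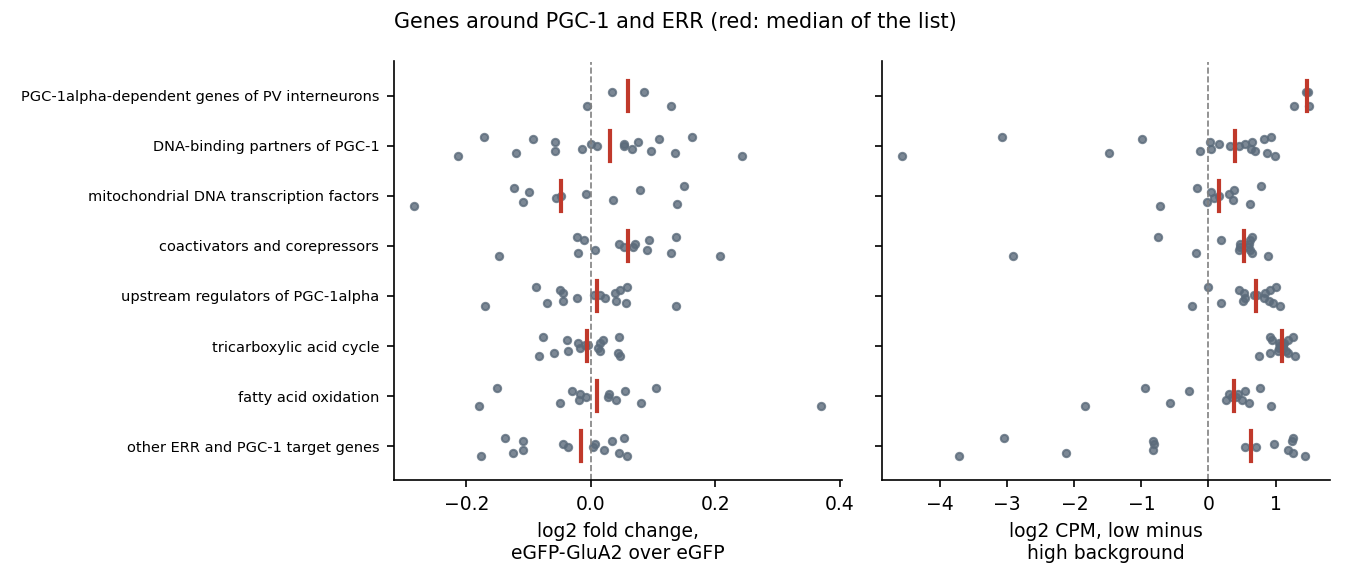
Genes of 8 lists around PGC-1 and the ERRs (grey points, 1 gene each; red line, list median): left, log2 fold change of eGFP-GluA2 over eGFP; right, mean log2 CPM of low minus high-background libraries. List medians on the left lie between -0.05 and 0.06, and those on the right between 0.16 and 1.47.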

How the data were processed

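Polyadenylated RNA was measured in 16 libraries of sorted PV cells, 7 eGFP-GluA2 and 9 eGFP, grouped by their titles. The titles number them as biological replicates without naming the animals, so p-values measure the spread between these samples. Per the series' design text and the submitters' processing notes, the authors used bcbio-nextgen 1.2.3, STAR on GRCm38, Sailfish with the Ensembl annotation, and DESeq2. The deposited counts are whole, unnormalised reads per gene (7454165 to 15462544 per library), and no source used here names their counter. The TPM values, also deposited, were scaled for length by the authors. A further deposited table of the authors holds signal values (gene counts divided by a size factor), log2 fold changes, a test statistic (a score) and p-values. All of its signal values (100%, tolerance 0.001) were whole multiples of 1 read, giving 10477517 to 17382059 recovered reads per library, and edgeR on these reads called 3 genes. No column was left unmapped.

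Of 54532 gene identifiers 54409 were named from GENCODE M21 (GRCm38). Counts were tested with edgeR 4.0.16 (TMM, filterByExpr, quasi-likelihood F test, robust, Benjamini-Hochberg over 26257 genes, threshold 0.05). Log2 CPM used a prior count of 2 and library sizes after TMM scaling. The CPM of background and of single genes used total counts per library. TPM was tested as log2(TPM + 0.5) with limma 3.58.1 over the table and, for single values and shares, with two-sided exact permutation tests over samples. Adjusted values for the TPM of the 5 genes are given over the whole table, not over the 5 genes as planned. Background classes were set at 500 and 1500 CPM, from earlier results of these data. DESeq2 1.42.0, R 4.3.3, Python 3.11.15 and scipy 1.17.1 were also used, and the tests were tested on simulated counts. There, edgeR found a planted 1.5-fold difference in 12% of cases without a covariate and in 40% with the background covariate. At 2-fold these detection rates were 39% and 62%, and at 4-fold 64% and 90%. Without the covariate most planted 2-fold differences were thus missed, so a call of 0 does not exclude a difference of that size. Promoter sequences are RefSeq's (GRCm38.p6). Promoters not in that table and proteins were not used here.

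The members and the gene lists were chosen with earlier results of these data known. Genes named from a list are those past the threshold or, where none passed, the 2 of smallest p. Genes most like a member are the 3 of highest residual r.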

Additional observations from a re-analysis of the deposited data

Results flagged for a closer look

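In eGFP-GluA2 replicate 1, Ppargc1a made up 49.8% of the summed TPM of Ppargc1a and Ppargc1b, while the other 6 eGFP-GluA2 libraries lay between 66.0% and 76.9%. The gap to the nearest library was 0.598 of the range of the group, above the 95% critical value of 0.568 for 7 samples. It was the only such value in 28 groups of members and shares, where chance gives about 1 in 20. In this high-background library Ppargc1a was at 13.9 TPM, the lowest of all libraries, and Ppargc1b at 14.0 TPM. On counts the same share was 67.7%, above the 65.8% of eGFP-GluA2 replicate 3, so the value stands apart on TPM and not on counts, and Ppargc1a was at 123 CPM, against 112 CPM in eGFP replicate 1. Without it the genotype difference of the share was -2.58 percentage points, against -5.51 with it.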

How the results depend on the processing

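Of the 5 genes, none passed an adjusted p of 0.05 in any fit across the table, and of 9 lists 0 genes did. Genes called over the whole table numbered 1 without a covariate and in each fit that left out a library, 9 with the background covariate, 11 with background class as a block, 9 with DESeq2, 2 with upper-quartile scaling, 3 without the high-background libraries, 3 on recovered reads (5 with the covariate) and 2 in each limma fit to TPM (4 with the covariate). Fits with the covariate on recovered reads or TPM, or beside the replicate block, were added after seeing the data. So were the TPM permutation tests of single genes that left out 1 library. Causes of the changes that follow were not tested.

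Members near 0 changed sign. In limma on TPM Ppargc1a was at 0.0397, Esrrb at 0.0689 and Esrrg at 0.17 with or without a filter, at 0.0394, 0.0746 and 0.17 with a pseudocount of 0.1, and at 0.00873, 0.0656 and 0.15 with the covariate. Esrrg was at 0.0469 on recovered reads and 0.0372 with the covariate on them. Esrra was at -0.0249 with background class as a block. Ppargc1b stayed above 0, at 0.08 to 0.44. Its limma fit to TPM gave 0.42 and recovered reads 0.37. Leaving out 1 library moved Ppargc1a over -0.16 to 0.0345 and Esrrg over -0.16 to 0.0334 on counts. On TPM it moved Ppargc1a over -0.0943 to 0.20, Ppargc1b over 0.36 to 0.48 and Esrrb over -0.00949 to 0.14. The exact permutation p of Ppargc1b then ran from 0.00668 without eGFP replicate 1 to 0.0348 without eGFP-GluA2 replicate 6. Within classes Ppargc1a on TPM was at -0.00526, and without high-background libraries at -0.00939. On TPM the Ppargc1a share difference was -6.97 within classes and -8.76 without high-background libraries, past the threshold in both; on counts it was -3.24 (adjusted p = 0.109, exact permutation) and -4.08 (0.0952), past it in neither. Leaving out 1 library gave -1.07 to 0.77 for the Esrrg share and -7.36 to -2.58 for the Ppargc1a share.

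Replicate numbers are shared by 7 pairs, but their deviations correlated at -0.03 to 0.90 and 2 of 7 samples matched best with their own number, so the numbers were not taken as pairs. With the replicate block 7 genes were called, Ppargc1a was at 0.10, Esrrg at 0.0738, Dld at 0.10, Sucla2 at 0.15 and Glul at 0.0898. With the background covariate and replicate block together 4 genes were called, Esrrb was at 0.00754 and Esr1 at 0.00237.

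Among list genes, limma on TPM gave Gabpa 0.0468, Sirt1 0.0504, Dld 0.0451, Sucla2 0.0584 and Cpt1a 0.0244, with or without a filter, and Acot2 0.0421 without one. With a pseudocount of 0.1 it gave Gabpa 0.0496, Sirt1 0.0546, Dld 0.0452, Sucla2 0.0586 and Cpt1a 0.0368. With the covariate it gave Gabpa 0.0422, Sirt1 0.0544, Dld 0.0184, Sucla2 0.0258 and Cpt1a 0.0218. Acot2 was at 0.00893 on recovered reads and 0.0129 with the covariate on them. With background class as a block Syt2 was at -0.0155, Nefh at -0.13 and Esr1 at 0.0363. Without high-background libraries Syt2 was at -0.00697, Nefh at -0.0277, Cpt1a at 0.0633 and Esr1 at 0.43. Leaving out 1 library gave -0.0363 to 0.23 for Nefh, -0.15 to 0.0224 for Dld, -0.18 to 0.0379 for Sucla2 and -0.49 to 0.15 for Esr1. With 7 against 9 libraries, the 95% intervals on counts ran from 0.661-fold to 1.38-fold for Ppargc1a, 0.736-fold to 1.61-fold for Esrra and 0.648-fold to 1.39-fold for Esrrg, so changes of such sizes could not be told from none.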
